A study of Bos taurus with 25 samples.

Results

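The kynurenine pathway degrades the amino acid tryptophan, and 8 of its enzymes, IDO1, TDO2, AFMID, KMO, KYNU, HAAO, ACMSD and QPRT, were followed in the liver and the mammary gland of lactating cows. Every non-control probe of the array whose name maps to 1 of these symbols was taken, which gave 10 of the 43653 different probes and 7 of the 8 genes. KMO matched no probe by name and was not analysed here. ACMSD, AFMID and HAAO had 2 probes each, and the brighter probe in a tissue stands for the gene unless the other is mentioned.

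The cows were Holstein dairy cows, and their tissues were sampled by biopsy 64 ± 3 days after calving. All cows received a weekly intramuscular injection of 5 mL, which held saline in the control group, 320 mg of folic acid in the B9 group, 10 mg of vitamin B12 as cyanocobalamin in the B12 group, or both vitamins at these doses in the B9 + B12 group. Control and B9 cows gave 3 arrays of each tissue, B12 cows gave 4 of each, and B9 + B12 cows gave 2 liver arrays and 3 mammary arrays. There were 25 arrays of 13 cows, and 12 cows gave both tissues. Each array held the labeled RNA of 1 biopsy of 1 cow, so that the values describe whole pieces of tissue with all their cell types.

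The pathway starts with the opening of the tryptophan ring by either of a pair of enzymes, TDO2, which is known as a hepatocyte enzyme that responds to tryptophan and to glucocorticoids, and IDO1, which is induced by interferon gamma in immune and epithelial cells. AFMID then releases kynurenine, KMO and KYNU carry it on to 3-hydroxyanthranilate, and HAAO turns that into an unstable semialdehyde. From this branch point the carbon goes to NAD by way of quinolinate, the substrate of QPRT, or is diverted by ACMSD to complete oxidation. In ruminants as in other mammals the liver is regarded as the main organ that runs the whole chain, and KYNU, which needs vitamin B6, is among its enzymes that depend on a vitamin.

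All values are log2 intensities. Within a tissue the values are those of the deposited table, which the authors normalized in each tissue separately. Between the tissues the scanner intensities of all 25 arrays were normalized together, since the deposited table was not. Between 71.2% and 84.2% of the spots of the liver arrays and between 64.5% and 76.5% of those of the mammary arrays were well above background. The liver arrays of cow 57 (B9) and cow 32 (B9 + B12) stood apart, with a median correlation of 0.971 with the other liver arrays, against 0.988 to 0.991 for the remaining 10. Markers fitted the labelled tissues, since all 8 measured hepatocyte markers were higher in the liver and the milk protein genes CSN1S1, CSN3 and LALBA were lower there, with log2 differences of −9.69 to −11.21. The keratins KRT8 and KRT18, listed as markers of the mammary epithelium, were higher in the liver.

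Most of the pathway was a liver pathway in these cows. Of the 7 genes, 5 were called higher in the liver, which required an adjusted p up to 0.05 in limma together with a 2-fold difference, namely TDO2, KYNU, HAAO, QPRT and ACMSD, and 0 were called lower. Over all 27841 gene names tested, 19.4% were called, 8.26% higher in the liver and 11.1% lower. AFMID also differed but, by its brighter probe, by less than 2-fold, and IDO1 did not differ detectably. In whole biopsies, fewer cells of a type and less RNA per cell cannot be told apart.

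Of the enzymes that open the ring, TDO2 was a gene of the liver in these arrays and IDO1 was measured in both tissues. TDO2 lay between 11.44 and 12.72 in the 12 liver arrays on the joint scale and between 5.97 and 6.26 in the 13 mammary arrays, of which 1 was well above background. The liver minus mammary difference was 5.96 (standard error 0.12, adjusted p = 7.06e-20 from limma). Because the mammary level was near background, the liver was at least 61.4-fold higher, as the liver mean against, for each mammary array, the higher of the probe and the lowest signal well above background. Liver and mammary gland did not overlap, and the liver was higher in 12 of 12 cows.

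IDO1 lay between 7.56 and 8.58 in the liver (median 8.22) and between 6.77 and 11.27 in the mammary gland (median 8.26), and all 25 arrays were well above background. The liver minus mammary difference was −0.0008 (95% interval −0.57 to 0.57, adjusted p = 0.998 from limma), and the liver was the higher tissue in 5 of 12 cows. The mammary arrays thus reached above and below all liver arrays. In the deposited table, which is not on a scale common to both tissues, the difference was 1.19 in favour of the liver (adjusted p = 0.000480 from limma). The IDO1 difference minus that of TDO2 was not tested.

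Most enzymes after the first step were also higher in the liver. HAAO, the dioxygenase of 3-hydroxyanthranilate, lay between 13.09 and 13.85 in the liver and between 6.18 and 6.51 in the mammary gland, where 11 of 13 arrays were well above background. The difference was 7.23 (standard error 0.08, adjusted p = 1.29e-23 from limma). ACMSD, the decarboxylase that takes carbon away from NAD synthesis, lay between 11.21 and 12.46 in the liver and between 6.76 and 7.45 in the mammary gland, a difference of 4.83 (standard error 0.12, adjusted p = 2.30e-18 from limma). QPRT, or quinolinate phosphoribosyltransferase, lay between 14.66 and 15.08 in the liver and between 10.34 and 11.11 in the mammary gland. The QPRT difference was 4.01 (standard error 0.07, adjusted p = 2.50e-20 from limma). In each of the 3 genes the lowest liver array was above the highest mammary array.

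KYNU, or kynureninase, showed a smaller gap. It lay between 8.04 and 9.59 in the liver and between 6.42 and 6.69 in the mammary gland, and the difference was 2.50 (standard error 0.11, adjusted p = 9.34e-14 from limma), or 5.65-fold. AFMID, the arylformamidase that follows IDO1 and TDO2, lay between 7.55 and 7.94 in the liver and between 6.88 and 7.50 in the mammary gland, a difference of 0.53 (standard error 0.06, adjusted p = 1.34e-07 from limma), or 1.44-fold. By these brighter probes AFMID stayed under the 2-fold limit, and all 6 genes other than IDO1 were higher in the liver in 12 of 12 cows. The second probes of ACMSD and AFMID were well above background in 12 of 12 liver and 0 of 13 mammary arrays, and that of HAAO in 12 of 12 and 1 of 13. By its second probe AFMID passed the 2-fold limit, with a difference of 1.23 (standard error 0.06, adjusted p = 8.01e-13 from limma), or at least 2.35-fold. The sizes depended on the processing, and over the alternatives the difference ran from 5.89 to 9.91 for TDO2, from 6.54 to 9.60 for HAAO, from 4.78 to 6.58 for ACMSD, from 3.96 to 5.73 for QPRT and from 2.38 to 4.05 for KYNU. For AFMID it ran from 0.49 to 1.65, and the brighter probe passed the 2-fold limit in the deposited table.

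**Figure D1:**
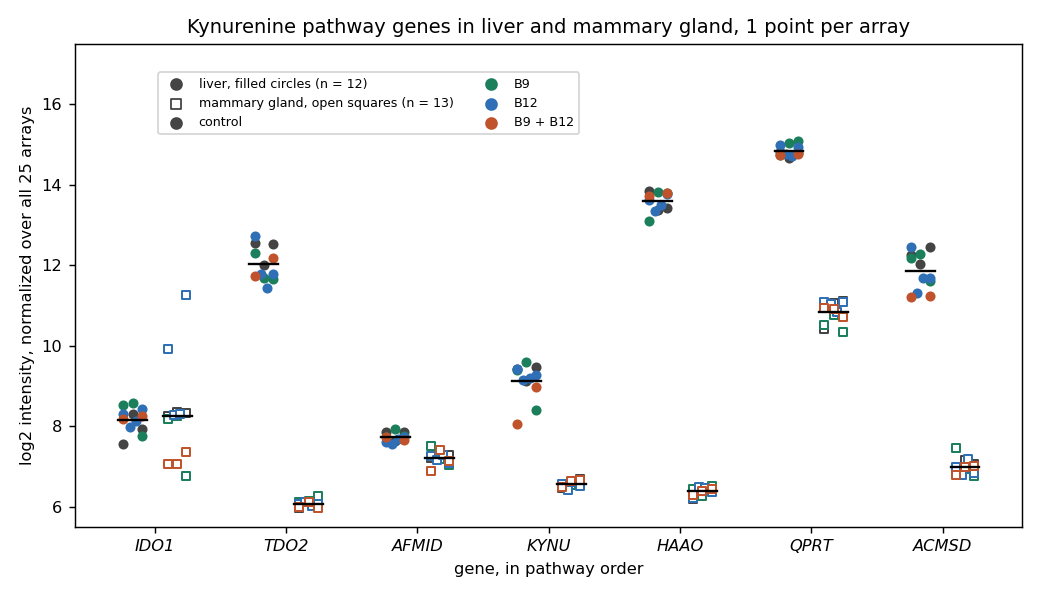
Log2 intensity, normalized over all 25 arrays, of the 7 genes in pathway order. Filled circles are liver arrays (n = 12), open squares mammary arrays (n = 13), colours give the treatment and black lines the tissue means. Liver and mammary arrays are separate for TDO2, KYNU, HAAO, QPRT and ACMSD and, by a narrow margin, for AFMID, whereas for IDO1 the mammary arrays reach from 6.77 to 11.27, around all liver arrays.

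Genes that neighbour the pathway were read on the joint scale, where 8.26% of all genes were called higher in the liver and 11.1% lower. All 6 measured genes of 7 that transaminate kynurenine or take the carbon of the ACMSD branch to acetyl-CoA were called higher in the liver, with differences from 1.49 to 6.73. ALDH8A1, which oxidizes the product of ACMSD, differed by 6.73 (adjusted p = 1.90e-21 from limma) and KYAT1, a kynurenine aminotransferase, by 3.94 (adjusted p = 3.57e-14 from limma). Of 6 measured genes of NAD synthesis and salvage, 2 were called higher in the liver, the NAD kinase NADK by 1.77 and the NAD synthetase NADSYN1.

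The other uses of tryptophan were divided between the tissues (over all genes, 8.26% called higher in the liver and 11.1% lower). Of 7 measured genes, the decarboxylase DDC and the monoamine oxidase MAOB were called higher in the liver, by 6.73 and 6.09, and the tryptophanyl-tRNA synthetases WARS1 and WARS2, which load tryptophan for protein synthesis, were called lower there, with differences of −3.02 and −1.28. SLC7A5 and SLC3A2, the 2 chains of a transporter of large neutral amino acids such as tryptophan, were also called lower in the liver, with differences of −7.36 and −1.49. Of the 5 measured transporters, 1 was called higher in the liver, SLC16A10, which carries aromatic amino acids, by 1.17.

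Genes that respond to the known inducers of the ring-opening enzymes were read in the same way. The shares over all genes were 8.26% called higher in the liver and 11.1% called lower. Of 7 measured genes that respond to glucocorticoids, 4 were called higher in the liver and 1 lower, and the highest differences were those of PCK1 (9.68) and TAT (7.62), which the liver uses for glucose and tyrosine metabolism. Of 12 measured genes that respond to interferon gamma, 3 were called higher in the liver and 2 lower. Among them, CXCL9, a chemokine, differed by 1.87 in favour of the liver, whereas CXCL11, another chemokine, had a difference of −1.28. Macrophage markers were called higher in the liver in 5 of 7 measured genes and lower in 1, and their part in the differences was not tested.

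Each vitamin treatment was then compared with the control group of the same tissue, to see whether the supplements changed these genes. By limma, 0 of 7 genes passed the same 2 limits in any of the 6 comparisons. The background was as low, with 0.00359% of 27841 genes called with B12 in the liver and 0% in the other 5 comparisons. At an unadjusted p below 0.05 there were 0 of 7 with B9 in the liver (background 3.14%), 0 with B12 in the liver (1.86%), 2 with B9 + B12 in the liver (6.09%), 1 with B9 in the mammary gland (2.57%), 0 with B12 in the mammary gland (2.37%) and 0 with B9 + B12 in the mammary gland (1.98%). By Cyber-T, the test named in the methods of the study, 1 of 7 genes passed in 1 comparison, IDO1 with B9 + B12 in the mammary gland, where Cyber-T called 0.0251% of all genes. In the other mammary comparisons it called 0 of 7, against 0.0287% of all genes with B9 and 0.0323% with B12. In the liver it also called 0 of 7, against 0.0108% with B9, 0.097% with B12 and 0.0611% with both.

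The median log2 fold change of the 7 genes was farthest from 0 in the liver with B9 + B12, where it was −0.11 against 0.03 over all genes, with 5 genes lower and 2 higher. In the other 5 comparisons the median of the 7 genes lay between −0.09 and 0.03. Differences of both vitamins given together from the sum of the single effects were called for 0 of 7 genes in each tissue by limma (background 0%), with 0 of 7 liver genes (background 3.58%) and 1 of 7 mammary genes, TDO2 (3.26%), at an unadjusted p below 0.05. The test whether a vitamin effect differed between the tissues also called 0 of 7 genes for each treatment (background 0%), with 1 at an unadjusted p below 0.05 for B9 (2.22%), 0 for B12 (1.64%) and 2 for B9 + B12 (4.16%).

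**Figure D2:**
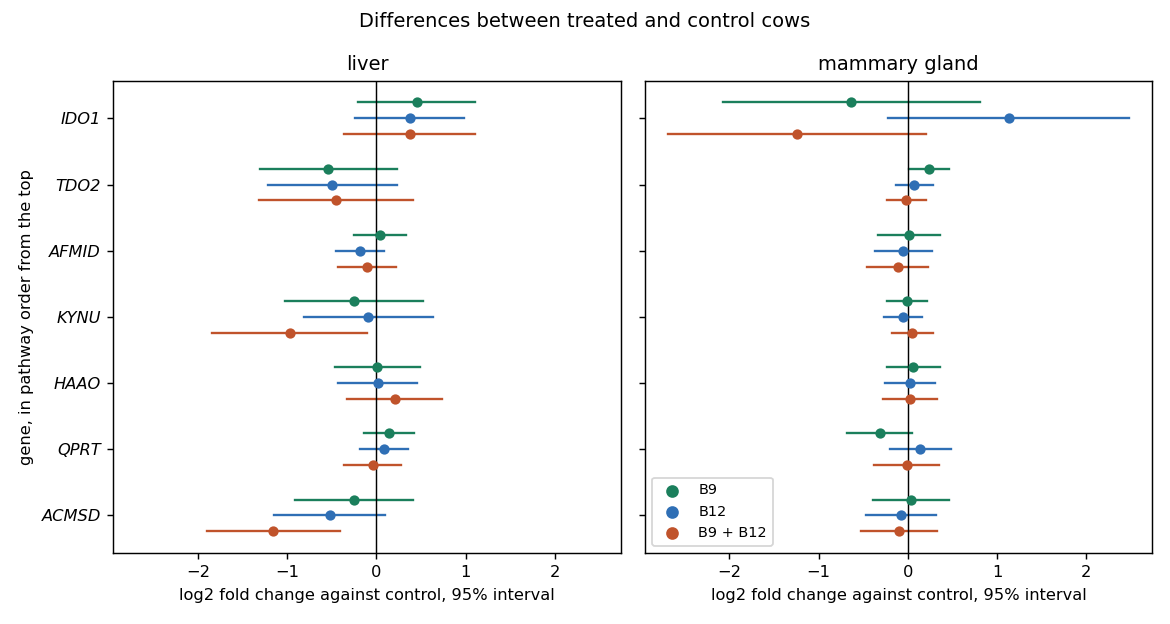
Log2 fold change of the treated groups against the control group of the same tissue, with 95% intervals from limma, for the 7 genes in pathway order. Most intervals include 0. Those of ACMSD and KYNU in the liver with B9 + B12 and of TDO2 in the mammary gland with B9 do not. The intervals are not adjusted for the number of probes tested.

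IDO1 in the mammary gland varied more between cows than nearly every other gene. The spread of its arrays around their group means was 0.94 on the log2 scale, at the 99.4th percentile of all genes in that tissue, and its 13 values covered a range of 4.64. In control cows it was 7.50 in cow 42, 7.60 in cow 43 and 7.57 in cow 51. In B9 + B12 cows it was 6.19 in cow 31, 6.21 in cow 32 and 6.55 in cow 38. All 3 treated cows were thus lower than the controls, which were nearly alike.

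With B9 + B12 the log2 fold change of IDO1 was −1.24 (limma, adjusted p = 1, standard error 0.66), from a mean of 7.56 ± 0.052 (SD, n = 3) to 6.31 ± 0.20 (SD, n = 3). A two-sided exact permutation test gave p = 0.1, which is the lowest value that 3 arrays against 3 allow. Over all genes 3.46% had every B9 + B12 array below every control array in this tissue. Cyber-T, which takes the spread from the compared groups and from genes of like intensity, gave an adjusted p of 0.00674, whereas limma pools the spread over all 4 mammary groups. This gene and comparison were singled out by the study on these arrays, and so they are not independent evidence of a decrease.

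The single vitamins did not give the same picture. With B12, IDO1 was 7.53 in cow 37 and 7.56 in cow 40, at the control level, but 9.17 in cow 36 and 10.49 in cow 52. The log2 fold change was 1.13 (limma, adjusted p = 1.00, standard error 0.62), and 2 of 4 arrays lay above the controls (two-sided exact permutation p = 0.343). With B9 it was 7.42 in cow 39, 7.51 in cow 41 and 5.85 in cow 57. The log2 fold change of −0.63 (limma, adjusted p = 1, standard error 0.66) rested on cow 57, since without this cow it was −0.09, and with the slide as a fixed block it was 0.03.

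The order of the group means of IDO1 in the mammary gland was B12, control, B9 and B9 + B12, from 8.69 to 6.31, and the arrays of neighbours in this order overlapped. The mean of B9 + B12 was lower than the sum of both single effects by an interaction of −1.74 (limma, adjusted p = 0.999, standard error 0.91). Without cow 52 the B12 difference was 0.53 in place of 1.13, and without cow 36 it was 0.97.

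In the liver, IDO1 showed no such spread. It was 7.79, 8.74 and 8.26 in the control cows 42, 43 and 51. It lay between 8.05 and 9.08 with B9, between 8.35 and 8.91 with B12, and was 8.57 and 8.70 with B9 + B12. All groups overlapped, with log2 fold changes from 0.37 to 0.45. Their direction differed between the scan days. The B12 and B9 + B12 differences were 0.71 and 0.67 on the first day and −0.40 and −0.17 on the later day. Each later difference was 1 treated array against 1 control array, and the first-day B9 + B12 value was also of 1 array. The scan day and the cow cannot be told apart here. All B9 arrays were scanned on the first day, where their difference was 0.69. For B9 + B12 the log2 fold change in the liver minus that in the mammary gland, on the joint scale, was 1.44 (limma, adjusted p = 0.835, standard error 0.82), so that a difference between the tissues was not established.

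**Figure D3:**
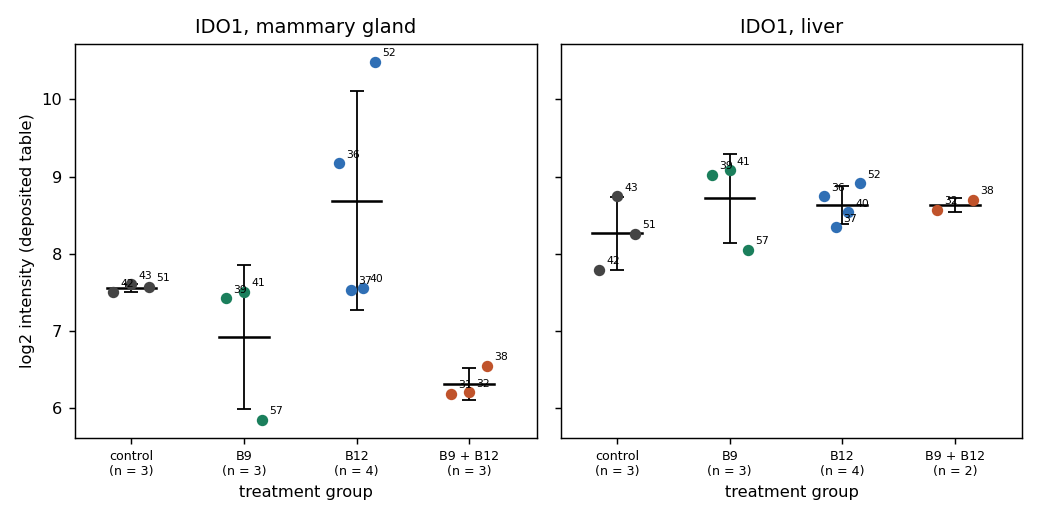
Log2 intensity of IDO1 in the deposited table by treatment group, for the mammary gland (left) and the liver (right), with the cow number beside each array. Black lines are group means and bars ± 1 SD. In the mammary gland the B9 + B12 arrays sit between 6.19 and 6.55, below the control arrays at 7.50 to 7.60, and cows 36 and 52 of the B12 group stand above all others.

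S100A12 and PLA2G15 were among the genes whose level across the 13 mammary arrays was most like that of IDO1, out of 8476 genes with a current symbol that were well above background on every array. S100A12, a calcium-binding protein of neutrophils and macrophages, had a correlation of r = 0.90 (Spearman's rho = 0.83), and without cows 52 and 36, the arrays farthest from the median of IDO1, r was 0.83. PLA2G15, a lysosomal phospholipase, had r = 0.89 (rho = 0.77) and 0.61 without both cows. The likeness of PLA2G15 thus rested in part on these 2 cows. These are descriptions over arrays that share the 2 vitamins and the normalization, and the genes were picked for their high correlations.

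Of the interferon gamma list, CXCL9 was high in the mammary array of 1 of the B12 cows with high IDO1. It was 7.87 in cow 52, and its next highest mammary value was 6.89 in the control cow 42. The summed level of the 12 measured genes was highest in cow 52 (14.15), followed by cow 36 (14.06), and lowest in cow 57 (13.36), the cow with the lowest IDO1. The control arrays lay between 13.83 and 14.05 and the B9 + B12 arrays between 13.68 and 14.03, so that this sum did not separate these groups.

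No gene of the interferon gamma list was called in the mammary gland. With B9 + B12, the guanylate-binding protein GBP5 differed by −1.24 on the log2 scale (limma, adjusted p = 1, standard error 0.56), and with 7 of 13 mammary arrays well above background for it the value is imprecise. TAP1, a peptide transporter of antigen presentation, had a value of −0.43 with B9 + B12, and PSMB9, a subunit of the immunoproteasome, −0.61 with B9. The markers of T and NK cells were lowest in cow 57 (summed level 12.29, other mammary arrays 12.64 to 13.84), and hepatocyte markers, which the mammary gland should hold little of, were highest in cow 52 (14.29, others 11.73 to 13.46). Markers of some other cells were also high in either or both of the B12 cows with high IDO1. The summed level of the 3 blood markers was 14.64 in cow 36 (other mammary arrays 10.79 to 12.74, lowest in cow 57, and 11.63 in cow 52). That of the 6 dendritic cell markers was highest in cow 36 (9.94) and cow 52 (9.88), with 9.13 to 9.77 in the other arrays. That of the 7 macrophage markers was highest in cow 52 (12.18), close to the next array, and was 11.94 in cow 36. In cow 52 the T and NK markers were at 12.64, the lowest but for cow 57. The 3 adipocyte markers summed to 15.53 to 15.58 in the B9 + B12 arrays, above the control arrays at 15.09 to 15.40. The part of these cells in the values of IDO1 was not tested.

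**Figure D4:**
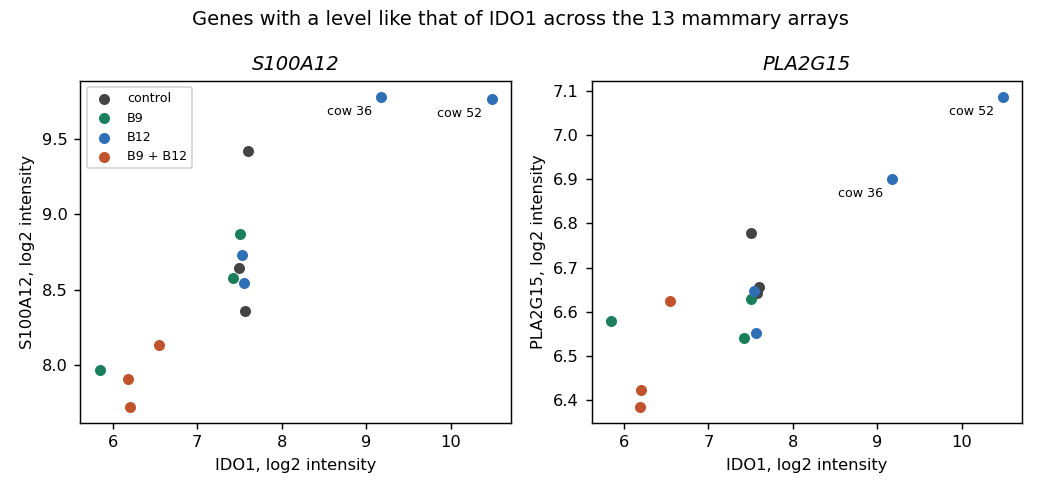
Log2 intensity in the deposited table of S100A12 and PLA2G15 against IDO1, 1 point per mammary array (n = 13), coloured by treatment. Both panels rise to the right, and cows 52 and 36 of the B12 group lie at the upper end in each.

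In the liver, ACMSD and KYNU were the 2 genes of the pathway whose B9 + B12 arrays lay apart from the control arrays, both on the low side. Over all genes 22.6% lay apart in this comparison, 9.5% on the low side, which is a high background since the group holds 2 arrays. Neither gene passed the adjusted threshold.

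ACMSD was 13.19 in cow 42, 12.92 in cow 43 and 13.40 in cow 51 of the control group, and 12.00 in cow 32 and 12.02 in cow 38 of the B9 + B12 group. By this brighter probe the 2 treated arrays were nearly equal and lower than every other liver array. On the log2 scale they differed from the controls by −1.16 (limma, unadjusted p = 0.00573, adjusted p = 0.664, standard error 0.34), or 2.23-fold, and a two-sided exact permutation test gave p = 0.1, the lowest that 2 arrays against 3 allow. Cyber-T gave an adjusted p of 0.0958. The second probe of ACMSD had a fold change of −0.85, and both probes correlated over the 12 liver arrays with r = 0.91. By the second probe cow 32 (11.84) and cow 38 (11.51) lay below the controls at 12.42 to 12.61, but cow 32 was above the B12 cows 37 (11.60) and 40 (11.58).

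The group means of ACMSD with the single vitamins lay in between, although 1 B12 array was as high as the highest control. With B12 it was 13.41 in cow 36, 12.11 in cow 37, 12.53 in cow 40 and 12.53 in cow 52. With B9 it was 13.10 in cow 39, 13.21 in cow 41 and 12.44 in cow 57. The group means therefore ran from control (13.17) over B9 (12.92) and B12 (12.64) to B9 + B12 (12.01), and neighbours in this order overlapped, except that both B9 + B12 arrays lay below all B12 arrays, which the second probe did not show. The fold change with B12 was −0.52 (limma, adjusted p = 1, standard error 0.28), with 3 of 4 arrays below all controls. By the second probe it was −0.59 (limma, adjusted p = 1.00, standard error 0.23). The interaction of both vitamins was −0.38 (limma, adjusted p = 1.00, standard error 0.44) by the brighter probe and 0.0058 (standard error 0.36) by the second, so that the probes gave no common value for it.

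The liver value of ACMSD did not hinge on the array of cow 32 that stood apart, since without it the fold change with B9 + B12 was −1.15 and without cow 38 it was −1.17. The arrays of cows 43, 37 and 32 shared a slide that was scanned on a later day. On that day cow 32 differed from the control cow 43 by −0.92, and on the other day cow 38 differed from the mean of the 2 control cows by −1.27. In the mammary gland, where ACMSD lay between 5.83 and 6.64, the fold change with B9 + B12 was −0.10 (standard error 0.19). The difference of the effect between the tissues on the joint scale, −0.95 (standard error 0.35), had an adjusted p of 0.835 from limma. ACMSD in the liver was also singled out by the study on these arrays.

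KYNU was 10.06 in cow 42, 9.71 in cow 43 and 10.10 in cow 51 of the control group, against 8.41 in cow 32 and 9.55 in cow 38 with B9 + B12. The groups differed by −0.97 on the log2 scale (limma, unadjusted p = 0.0309, adjusted p = 0.664, standard error 0.39), and the two-sided exact permutation p was 0.1, again the lowest the design allows. Both treated arrays lay below the controls, cow 38 by a small margin. With B9 it was 10.01 in cow 39, 10.24 in cow 41 and 8.86 in cow 57, and with B12 all 4 arrays lay between 9.74 and 10.04. The lowest values of KYNU were thus those of cows 32 and 57, the 2 liver arrays that stood apart from the rest. The liver array of cow 32 also had the lowest median signal over background of the 12 (2.30, others 3.23 to 10.47). Its share of spots well above background was the lowest too (71.2%). Cows 37 (3.23) and 43 (3.58), on the same slide, had the next lowest signal, with KYNU at 9.74 and 9.71. The part of the low signal in the KYNU value of cow 32 was not tested. Without cow 32 the fold change with B9 + B12 was −0.40, and without cow 38 it was −1.54. Within the first scan day the difference was −0.53 and within the later day −1.29.

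Markers of other cells were also set beside these liver values. The summed level of the 7 measured macrophage markers was 15.07 in cow 32, above the 14.37 to 14.66 of the other 11 liver arrays. The 8 markers of T and NK cells summed to 14.18 in cow 32, 14.19 in cow 38 and 14.37 in cow 57, above the control arrays at 13.55 to 14.04. In both B9 + B12 arrays the 6 dendritic cell markers (12.06 in cow 32 and 12.10 in cow 38) and the 4 endothelial markers (12.19 and 12.11) summed to more than in any of the other 10 liver arrays, which lay between 11.50 and 11.97 and between 11.50 and 12.08. The 8 hepatocyte markers lay between 20.81 and 20.95 over all 12 liver arrays, with the lowest value in cow 32 and the highest in cow 38, both of the B9 + B12 group. In the B12 arrays the endothelial markers summed to 11.50 to 11.81, below the controls at 11.90 to 12.08. Markers of the mammary epithelium summed to 16.43 to 17.40 with B12 and to 16.80 to 16.90 in the controls. The part of these cells in the values of ACMSD and KYNU was not tested.

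**Figure D5:**
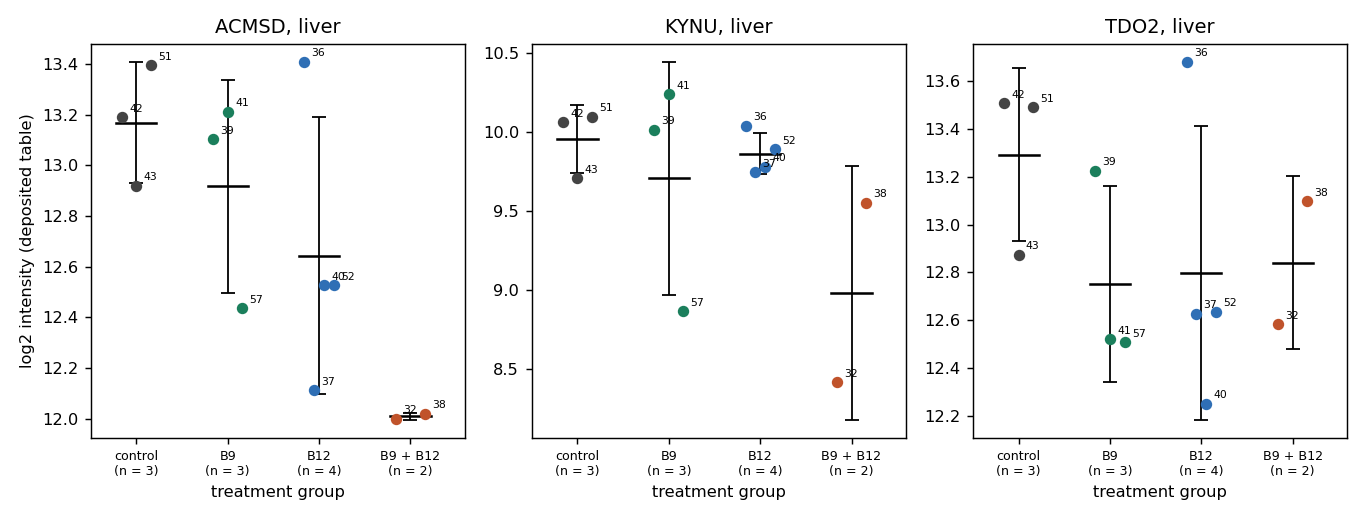
Log2 intensity in the deposited table of ACMSD, KYNU and TDO2 in the liver by treatment group, with the cow number beside each array; black lines are group means, bars ± 1 SD, and each panel has its own axis. Both B9 + B12 arrays lie below all control arrays for ACMSD (12.00 and 12.02) and KYNU (8.41 and 9.55) and overlap with them for TDO2.

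TDO2 in the liver was lower on average with each vitamin, but no group lay apart from the controls. It was 13.51 in cow 42, 12.87 in cow 43 and 13.49 in cow 51 of the control group. It lay between 12.51 and 13.23 with B9, between 12.25 and 13.68 with B12, and was 12.59 and 13.10 with B9 + B12. The log2 fold changes were −0.54 (standard error 0.35) with B9, −0.49 (standard error 0.33) with B12 and −0.45 (standard error 0.39) with both, with adjusted p from 0.695 to 1.00 in limma. As the 3 comparisons share their control arrays, their like sign is not support for each other. Within the later scan day, which holds control cow 43, the B12 and B9 + B12 differences were −0.25 and −0.29, and on the other day they were −0.64 and −0.40.

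In the mammary gland, TDO2 was not well above background in any control array, and in 1 of 3 B9 arrays it was. The B9 values of 4.94, 4.99 and 5.16 lay just above the control values of 4.69, 4.93 and 4.76, a log2 difference of 0.24 (limma, adjusted p = 1) between levels near background. Over all genes 3.43% had every B9 array above every control array in this tissue.

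For the brighter probes of the remaining 3 genes, AFMID, HAAO and QPRT, treated and control arrays overlapped in every comparison. AFMID in the liver lay between 7.76 and 8.29, with log2 fold changes from −0.19 to 0.04. Its second probe did not follow the first (r = 0.12 over the liver arrays), and it was 7.20 and 6.96 with B9 + B12, below the controls at 7.35 to 7.75, a fold change of −0.48. The probes of AFMID thus disagreed on this comparison.

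HAAO in the liver lay between 14.09 and 14.89, and its log2 fold change was 0.01 with either vitamin alone and 0.20 with both. QPRT had the smallest range of the 7 genes in the liver, with 12 values between 15.59 and 15.99 and fold changes from −0.04 to 0.14 (95% interval for B9 + B12 −0.36 to 0.27). In the mammary gland QPRT lay between 9.59 and 10.33, with the 3 B9 arrays at 9.75, 9.99 and 9.59 and the control arrays at 9.67, 10.28 and 10.33. The B9 fold change of −0.32 (limma, adjusted p = 1, standard error 0.17) was below that in the liver by 0.52 on the joint scale (limma, adjusted p = 1.00). The missed thresholds do not show equal levels.

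The other 4 genes were low in the mammary gland. AFMID lay between 5.98 and 6.70, KYNU between 5.39 and 5.74, HAAO between 5.05 and 5.51 and ACMSD between 5.83 and 6.64. Their log2 fold changes with the 3 treatments ran from −0.12 to 0.06, and treated and control arrays overlapped in every case.

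Among the neighbours of the pathway, 0 genes were called in any treatment comparison by limma. In the liver with B9 + B12, KYAT1 had its 2 treated arrays (14.79 and 14.42) below the control arrays at 14.94 to 15.39. Its fold change was −0.63 (limma, adjusted p = 0.674). The same low-side separation was found for 9.5% of all genes in that comparison, so it is weak evidence for KYAT1. MAOB lay below all controls with B9 and with B12, with fold changes of −0.42 (limma, adjusted p = 0.891) and −0.33 (limma, adjusted p = 1), which share their control arrays. Over all genes 4.57% lay below all controls with B9 and 2.59% with B12. SLC7A5 had a fold change of 1.12 with B9 + B12 (limma, adjusted p = 0.664), with overlapping groups.

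Of the interferon gamma list in the liver with B9 + B12, 2 of 12 measured genes had an unadjusted p below 0.05 on the low side and 1 on the high side, where 2.49% and 3.6% of all genes did. CXCL10, an interferon-induced chemokine, was 8.71 in cow 32 and 9.36 in cow 38 against 9.45 to 10.65 in control cows, a log2 fold change of −1.21 (limma, adjusted p = 0.664). IRF8, a transcription factor of myeloid cells, had a fold change of 0.60. IDO1 in the same arrays was 8.57 and 8.70, within the range of the controls.

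The 7 genes did not move as a block from cow to cow. With the group means removed, the 21 pairs of genes in the liver had correlations between −0.30 and 0.82 over 12 arrays, with a median of 0.31, and those in the mammary gland between −0.42 and 0.75 over 13 arrays, with a median of 0.13. The highest in the liver was that of HAAO and QPRT (r = 0.82, rho = 0.85), neighbours on the way to NAD, with 0.76 without the 2 arrays farthest from the median of HAAO. TDO2 and ACMSD followed (r = 0.72, rho = 0.61), with 0.38 without the 2 farthest arrays, and in the mammary gland AFMID and ACMSD were highest (r = 0.75, rho = 0.71, without the 2 farthest 0.70). The arrays share their normalization, and the values are given as a description.

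Over all 12 liver arrays, with group means kept, ACMSD was most like GRAMD2B, a membrane-contact protein (r = 0.89), DERA, an aldolase of deoxyribose phosphate (r = 0.85), and ARG1, the arginase of the urea cycle (r = 0.85), and these values were 0.95, 0.80 and 0.90 without cows 32 and 38. TDO2 was most like RARS2 (r = 0.82), MGC127133 (r = 0.80) and BHMT, which remethylates homocysteine with betaine (r = 0.78), and without cows 36 and 42 these were 0.76, 0.70 and 0.70. KYNU in the mammary gland, where its 13 values covered 0.35, was most like C8H9orf85 (r = 0.88), YWHAE (r = 0.85) and LNX1 (r = 0.85). The liver genes were the 3 highest of 8951, and those of the mammary gland of 8476.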

How the data were processed

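Liver and mammary biopsies of 13 cows were hybridised, 1 sample per array, to 25 one-colour Agilent bovine 4x44K arrays. The deposited scanner files hold spot intensities from Feature Extraction (version 9.1 per the labels, 10.7.3.1 per the file headers), and the authors' deposited table holds log2 values after normexp background correction and normalization within each tissue. A recalculation with an offset of 16 gave median absolute deviations from its values of 0.0019 (liver) and 0.0010 (mammary gland).

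Within a tissue the deposited log2 values were used with outlier spots set to missing, and spots of a probe were averaged. Between tissues the deposited scanner intensities were corrected with normexp (offset 50) and quantile-normalized over all arrays. Models were fitted to all 43653 probes in limma 3.58.1 (R 4.3.3), with the arrays of a tissue sharing 1 estimate of the spread. The p-values were Benjamini-Hochberg adjusted over all these probes, and each of the 27841 names was then read by its brightest probe. A call needed an adjusted p up to 0.05 together with a 2-fold change. Of the probes, 53.9% had a current symbol by their accession in RefSeq's gene list (assembly ARS-UCD2.0). That build is not that of the array annotation, so no coordinates are given, and the promoter motif search that had been planned was not run because no sequences were used here.

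A treatment comparison of a gene was given with fold change and test where all treated arrays lay on 1 side of all control arrays, where it reached 1.5-fold, or where the study named the gene for it (ACMSD in liver and IDO1 in mammary gland, B9 + B12). Neighbouring genes followed the same rule, and the 3 highest correlations chose the genes most like a member, of which 1 gene is not reported here. The pathway members and gene lists were chosen with earlier results of these data known. Between the tissues, the other measured lists had these calls in the liver: the aryl hydrocarbon receptor (1 of 4 genes higher), dendritic cells (2 of 6 higher), T and NK cells (2 of 8 lower), endothelium (0 of 4), blood (0 of 3), adipocytes (1 of 3 lower) and muscle (1 of 4 lower). The shares over all genes were 8.26% higher and 11.1% lower.

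Tissues of the same cow were paired by design. The deviations of both tissues from their group means correlated with r from −0.246 to 0.259 over 12 cows (median 0.037). Alternatives were Cyber-T (window 101, confidence 10), other background corrections and scalings, a filter on dim probes, array weights, slide, scan day and cow as blocks, and leaving out each array. The tests were also tried on simulated data, where Cyber-T made more false calls than limma in both comparisons with B9 + B12. The median signal over background was 6.98 (liver) and 3.87 (mammary gland), and the number of arrays limits the precision.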

Additional observations from a re-analysis of the deposited data

How the results depend on the processing

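The 0 calls in the treatment comparisons, in the interactions and in the tests of a vitamin effect between tissues held under the alternatives run, except that Cyber-T called 1 gene in the mammary gland with B9 + B12, IDO1 (−1.24, adjusted p = 0.00674). Of the tissue comparison, 5 genes were called under each alternative but the deposited table, which gave 7, with AFMID (1.65) and IDO1 (1.19) added. The differences of TDO2 and HAAO were 9.91 and 9.60 with 75th percentile scaling and 8.06 and 9.30 in the deposited table. With each cow as a replicate block, fixed or random, 5 genes were again called between tissues, the IDO1 difference was −0.015 or −0.0005, and no other call changed with the pairing.

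The sign of the liver minus mammary difference of IDO1, which was −0.0008, turned with 75th percentile scaling (0.026), without background correction (0.056), with a normexp offset of 16 (0.051), with slide as a fixed (0.345) or random block (0.049) and in the deposited table (1.19). Leaving out 1 array moved it between −0.121 and 0.151. The IDO1 fold change with B9 in the mammary gland turned to 0.031 with slide as a fixed block. With B9 + B12 it lay between −1.63 and −0.96 over the alternatives, and between −1.36 and −1.18 when 1 array was left out. In the liver with B9 + B12, leaving out 1 array gave −1.28 to −1.04 for ACMSD and −1.54 to −0.40 for KYNU. The causes were not tested. In the mammary gland, TDO2 and the second probes lay near background, which limits their values, and a comparison of 2 or 3 arrays with 3 cannot reach an exact permutation p under 0.1. The scan day could not be fitted in the mammary gland, whose 13 arrays were scanned on the same day, and the filter on dim probes removed TDO2 there.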
